A study of Mus musculus with 13 samples.

Results

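Hoxa5, Hoxa7, Hoxa9, Hoxa10, Meis1 and Pbx3 are homeobox genes known for self-renewal of hematopoietic stem and progenitor cells, and the question addressed was where C/EBPα candidate regions lie around them in LSK cells. A region was assigned to a gene if its centre lay within 100 kb of the gene's transcription start site (TSS) or inside the gene body, and 3 of the 17899 deposited regions met this rule. The region of Meis1 lay on the promoter with its centre 27 bp upstream of the TSS, the region of Pbx3 lay in an intron, and the region shared by Hoxa5 and Hoxa7 lay outside the Hoxa cluster. Hoxa9 and Hoxa10 had none.

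The regions come from ChIP-seq with a C/EBPα antibody (Santa Cruz 14-AA) on LSK cells, which are mouse bone marrow cells sorted as Lin- Sca-1+ Kit+, a gate for hematopoietic stem cells and early progenitors. The mice were on the C57BL/6 background, and the strain label is cebpa flox/flox with Mx1Cre, a Cre transgene under the interferon-inducible Mx1 promoter that deletes floxed alleles once induced. The library carries no genotype label, so whether its cells were from undeleted mice is not stated, and libraries labelled wild type and knock out share this strain label. Of the 13 samples of the series, 1 had a processed file analysed here, and the other 12, among them the second C/EBPα library from LSK cells, the IgG mock, 8 histone mark libraries and 2 libraries from GMPs (granulocyte-macrophage progenitors), were not used. The authors called the regions with MACS, a program that compares ChIP reads with those of a control, here the IgG mock. Each region carries a score, which is the MACS p-value as −log10 multiplied by 10, and the lowest score, 50, corresponds to a p-value of 1e-05. The list precedes the further filters of the study on height, presence in both samples and IgG level. None of the 3 regions described here overlapped a region kept after those filters. The filters left out the great majority of the list, so most of its regions share this absence. How common the absence is among regions that score as high as that of Meis1 was not counted. Since 1 list filed under 1 library was at hand, no value has a replicate check and no test between groups was possible. Presence in both samples was among the study's filters, but which filter left out each of the 3 regions is not stated. The file holds no read numbers. The study shows mapped reads of its ChIP-seq samples in a supplementary figure, whose values were not at hand here. A region list holds no expression values, and the LSK label could not be checked against marker genes.

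C/EBPα is a basic leucine zipper transcription factor that drives myeloid differentiation and is expressed at a low level in stem cells. Hoxa9 and its neighbours encode homeodomain proteins that are high in stem cells and fall as cells differentiate. MEIS1 and PBX3 belong to the TALE class of homeodomain proteins, which bind DNA together with HOXA9, and forced expression of Hoxa9 with Meis1 is a classical model of acute myeloid leukemia.

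The sequence just upstream of Meis1 is shown because it carries the consensus words that the other regions of the gene set lack. A word is a fixed string of letters searched on both strands of mm9, and for C/EBP it was TTACNNAA or TTGCNNAA, where N is any base. The ETS word, for the family that includes PU.1, was AGGAAG or CGGAAG followed by C or T. The stretch runs along the plus strand from the base before the TSS (chr11:18918962-18919161, mm9), Meis1 itself reads on the minus strand, and capitals mark the ETS word and then the C/EBP word.
Meis1 upstream: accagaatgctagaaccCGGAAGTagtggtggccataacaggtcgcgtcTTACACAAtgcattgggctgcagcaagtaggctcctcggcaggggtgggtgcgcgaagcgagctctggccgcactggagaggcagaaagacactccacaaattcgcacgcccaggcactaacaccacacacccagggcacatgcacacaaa

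The primers that the study designed for C/EBPα ChIP-qPCR at Meis1 are shown because each overlaps one of these words, the reverse primer only in part. Whether the words guided the placing of the primers is not stated. Capitals mark the primer bases that fall in a word, in the ETS word for the forward primer (plus strand) and in the C/EBP word for the reverse primer (minus strand, so that it reads the complement).
Meis1 forward primer: agaatgctagaaccCGGAAGTa
Meis1 reverse primer: GTAAgacgcgacctgttatgg

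The centres of the other 2 regions are shown for contrast, 70 bp to both sides of the middle base on the plus strand of mm9. Neither holds a C/EBP or ETS word, so there are no capitals. The Pbx3 stretch is chr2:34062241-34062381 and the Hoxa flank stretch is chr6:52073879-52074019.
Pbx3 intron: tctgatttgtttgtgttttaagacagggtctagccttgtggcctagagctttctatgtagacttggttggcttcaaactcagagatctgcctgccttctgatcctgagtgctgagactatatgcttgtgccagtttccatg
Hoxa flank: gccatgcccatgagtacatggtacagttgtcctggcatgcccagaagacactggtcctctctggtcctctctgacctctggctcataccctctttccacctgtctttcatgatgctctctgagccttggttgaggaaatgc

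At least 1 region lay in the window of 4 of the 6 genes, and the same was true of 80.3% of the 22367 annotated protein-coding genes. The remaining 2 genes, Hoxa9 and Hoxa10, belong with the 19.7% of genes that had no region in the window. A region centre within 5 kb of the TSS was found for 1 of the 6 genes (Meis1) and for 8.81% of all genes. A region with a score of 100 or more was found in 1 window (Meis1 again) and in 28.9% of all windows. These 6 genes are too few for their shares to be read against the genome. The median gene had 2 regions in its window, 25.3% of genes had 1, and 55.0% had 2 or more, a number that none of the 6 genes reached. Per 100 kb of window there were 0.5 regions for Hoxa5 and Hoxa7, 0.419 for Meis1 and 0.333 for Pbx3, against a median of 1.0 over all genes. Meis1 and Pbx3 are long genes, and among the 1718 genes longer than 130 kb the median was 2 regions and 32% had at most 1.

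**Figure D1:**
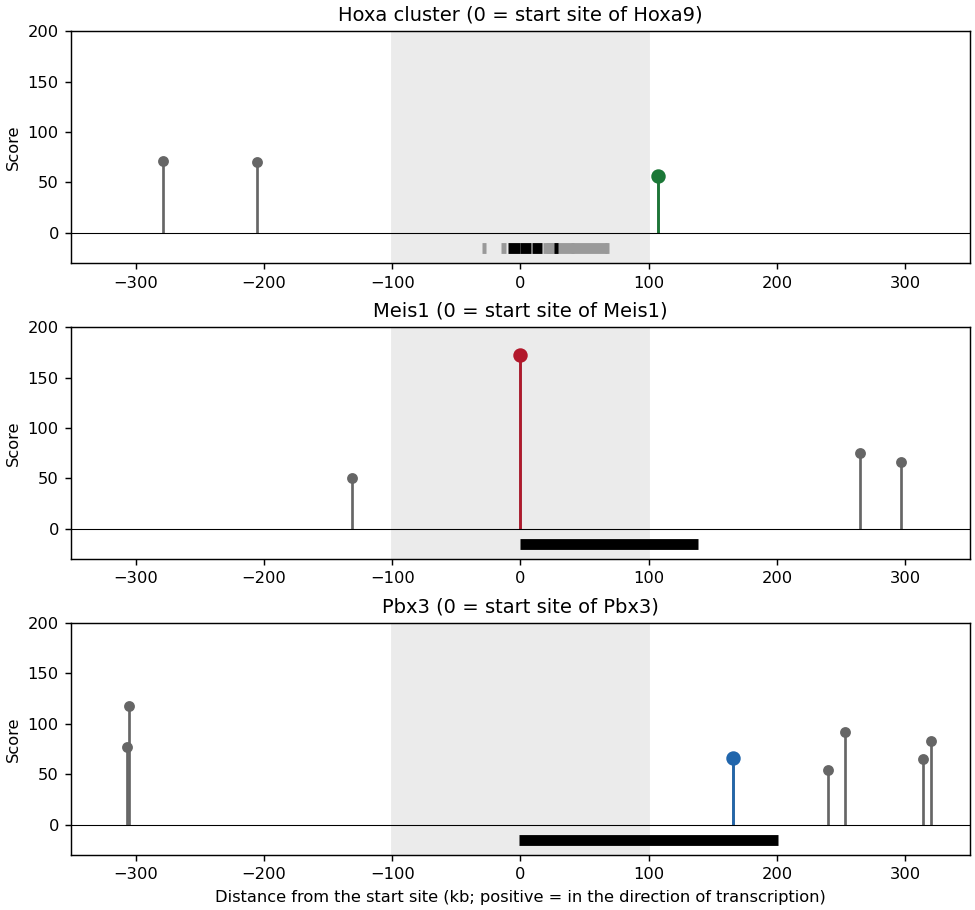
Candidate regions around the Hoxa cluster, Meis1 and Pbx3, with the distance from the start site of Hoxa9, Meis1 or Pbx3 in kb on the x axis (positive in the direction of transcription) and the score on the y axis. Each stem is 1 region of the single list, and coloured stems are the 3 regions assigned to the gene set. Bars under the axis are gene bodies (black for the 6 genes, grey for other Hoxa genes), and the shaded band is 100 kb to each side of the named start site. The Meis1 region stands at the start site with a score of 172.26, while no stem lies over the Hoxa genes or within the band of Pbx3.

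The 3 regions had scores of 172.26 (Meis1), 65.83 (Pbx3) and 56.5 (Hoxa flank). Over all regions the median score was 73.75, so the Meis1 region lay above it and the other 2 below. Their widths were 691, 562 and 476 bp in the same order, and the median width over all regions was 587 bp. The order by width was thus the order by score, and the Meis1 region was again the only one of the 3 above the median. Their GC content was 52.0% for Meis1, 42.0% for Pbx3 and 52.9% for the Hoxa flank, beside a median of 48.7% over all regions.

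**Figure D2:**
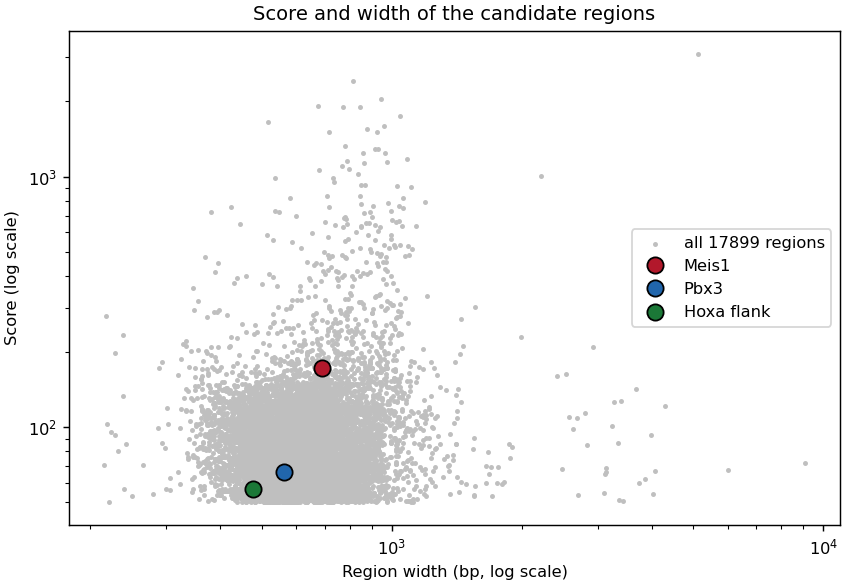
Score against width (bp) for all 17899 candidate regions, both on log scales, with each grey point 1 region and the 3 regions of the gene set in colour. The Meis1 region (691 bp, score 172.26) lies in the upper part of the cloud, and the Pbx3 region (562 bp, 65.83) and the Hoxa flank region (476 bp, 56.5) lie near its lower edge.

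Meis1 encodes the TALE partner of HOXA9 and is required in hematopoietic stem cells. Its region (chr11:18918643-18919333, mm9) had a score of 172.26, which corresponds to a MACS p-value of 5.94e-18 and ranked 511 of 17899. Of all regions 97.1% scored lower and 81.2% were narrower. Despite this rank, the region overlapped none of those kept after the study's further filters. The gene (ENSMUSG00000020160.10) spans chr11:18780433-18918961 on the minus strand. The region covered the TSS at 18918961, with 372 bp upstream of the gene and 319 bp inside it. The 319 bp lie wholly in the first exon of the longest annotated transcripts. A TSS at 18918925, shared by 2 shorter transcripts, lay 63 bp from the region's centre, and one at 18918717 lay 271 bp from it. A further short transcript starts 6983 bp from the centre. Of all protein-coding genes 0.174% had a region nearer to their TSS than Meis1.

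The Meis1 region was rich in CpG dinucleotides, with 35 of them or 5.07 per 100 bp, and 97.4% of regions had fewer per base. The median over all regions was 1.14 per 100 bp. Regions on start sites were in general alike in this respect. The 71 regions with their centre within 50 bp of a TSS, the Meis1 region among them, had a median of 5.85 per 100 bp. The score of the Meis1 region was above that of 52 of these 71 regions (73.2%), whose scores reached from 50.57 to 1904.75 with a median of 103.45. Within 1 kb of a TSS there were 638 regions, 3.56% of the list, with a median score of 81.865, and 82.0% of them scored lower than the Meis1 region. Further out than 5 kb this share was 97.8% of 16032 regions. The Meis1 score was therefore less unusual among regions at start sites than in the list as a whole.

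The C/EBP word of the Meis1 region was TTACACAA at chr11:18919011-18919018, which is 50 to 57 bp upstream of the TSS. Its middle lay 26.5 bp from the region's centre, and 825 of all regions (4.61%) had a C/EBP word as near to theirs. A C/EBP word anywhere in the region was found in 1 of the 3 regions, a share of 33.3% with an exact 95% binomial interval of 0.84% to 90.6% for counting error, and in 36.3% of all regions. The interval is too wide for these 3 regions to be set apart from the list or likened to it. C/EBP words occurred at 1.09 per kb over all 21 chromosomes. How often stretches of this length outside the list hold such a word was not tested. The share of 36.3% and the word at Meis1 can therefore not be read as an excess over other sequence. The ETS word was CGGAAGT at chr11:18918979-18918985, 18 to 24 bp upstream of the TSS and 6 bp from the region's centre at its middle base. ETS words were likewise found in 1 of the 3 regions and in 33.9% of all regions.

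In the Meis1 region 25 bases separated the ETS word from the C/EBP word. Both kinds of word were present in 13.2% of all regions, and both with at most 25 bases between them in 2.06%, which is 368 regions. Among the 511 regions that scored at least as high as that of Meis1, a C/EBP word was found in 76.5%, an ETS word in 54.6% and both in 42.7%. The 2 words lay at most 25 bases apart in 55 of these 511 (10.8%). Across the whole list, the share of regions with a C/EBP word was 34.2% at scores of 50 to 60, where the Hoxa flank region falls, and 33.1% at 60 to 70, where the Pbx3 region falls. It was 40.5% (exact 95% interval 38.8% to 42.2%) at 100 to 200, where the Meis1 region falls, and 81.2% (76.9% to 85.1%) at 200 or more. Within 50 bp of a TSS 45.1% of regions had a C/EBP word, 49.3% an ETS word and 23.9% both.

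The product of the Meis1 primers covered 50 bases (chr11:18918965-18919014), 4 to 53 bp upstream of the TSS. It held all 7 bases of the ETS word, which are part of the forward primer, and 4 of the 8 bases of the C/EBP word, which begin the reverse primer. The amplified fragment thus ended inside the C/EBP word. The qPCR values were not analysed here.

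**Figure D3:**
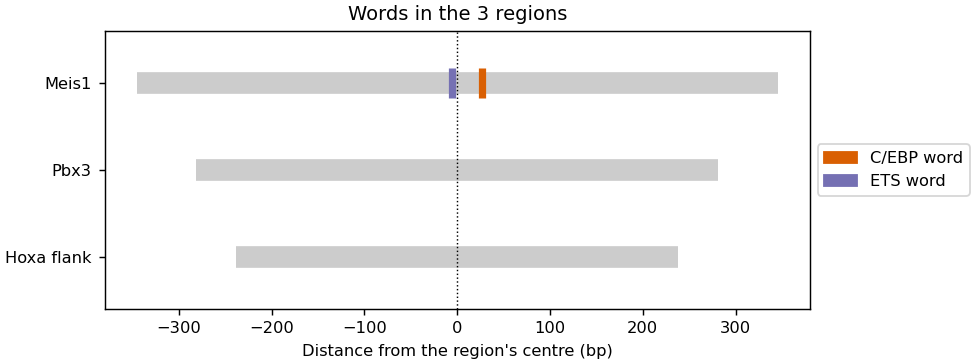
The 3 regions drawn to scale as grey bars, with the distance from each region's centre in bp on the x axis and marks at the middle of each C/EBP word (orange) and ETS word (purple). In the Meis1 region the ETS word lies 6 bp and the C/EBP word 26.5 bp from the centre, and the Pbx3 and Hoxa flank regions hold no mark.

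No other region lay in the Meis1 window. Toward and beyond the gene body the next 264280 bp were free of regions, and 130418 bp were free on the upstream side. Of the 17878 stretches between neighbouring regions on the same chromosome, 13.8% were longer than the first and 32.9% longer than the second. The next region beyond the gene (chr11:18653774-18654362) had a score of 75.45 and lay 264.9 kb downstream of the TSS, in intergenic sequence 126365 bp from the gene's end. It held the C/EBP words TTGCATAA and TTACTAAA and 1 ETS word. The next region on the upstream side (chr11:19049752-19050342) had a score of 50.69, close to the lowest of the list, lay 131.1 kb from the TSS and held neither word. The Meis1 gene body held 158 C/EBP words, or 1.14 per kb, beside 0.962 per kb over chromosome 11 and 1.09 per kb over all 21 chromosomes.

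Pbx3 encodes a TALE homeodomain protein that forms complexes with HOXA9 and MEIS1. Its region (chr2:34062031-34062592, mm9) had a score of 65.83, a MACS p-value of 2.61e-07, and ranked 11248. Of all regions 37.1% scored lower and 62.8% higher, so that it lay in the lower part of the list. The gene (ENSMUSG00000038718.7) spans chr2:34026977-34228660 on the minus strand. The region lay 165.2 kb downstream of the TSS at 34227558 and entered the set because it is inside the gene body. For 89.6% of all genes the nearest region was closer to the TSS. It fell in intron 4 of the longest transcript, which has 8 exons. That intron spans chr2:34060436-34068771 (8336 bp), and the region was 1596 bp from the nearest exon. A short transcript of Pbx3 starts at 34068964, and the centre of the region lay 6.65 kb downstream of that start, in its intron 1.

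The Pbx3 region was poor in GC and CpG. Its GC content of 42.0% was undercut by 4.77% of regions, and it had 4 CpG dinucleotides or 0.712 per 100 bp. It held none of the words searched. The Pbx3 gene body held 236 C/EBP words, 1.17 per kb, against 1.08 per kb over chromosome 2. On the side of the TSS 469471 bp were free of regions, and 5.2% of all stretches were longer. On the other side the free stretch was 74227 bp, near the median of 77989 bp. The next region upstream of Pbx3 (chr2:34532064-34532544) lay in Gapvd1, 304.7 kb from the TSS, with a score of 117.92. It held the ETS word CGGAAGT, 12 bp from its centre, and the word TGATTAAT, which matches TGATTNAT, a composite HOX and PBX word. The next region on the other side (chr2:33987271-33987803, score 54.0) lay beyond the end of the gene, and held an ETS word but no C/EBP word.

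The Hoxa genes encode homeodomain factors, and Hoxa5, Hoxa7, Hoxa9 and Hoxa10 lie in one cluster on chromosome 6, all on the minus strand. From Hoxa2 to Hoxa13 the cluster, as it was read here, spans chr6:52112350-52210874, which is 98525 bp with 10 genes. No region had its centre inside this span, and none overlapped it. The nearest region on the Hoxa2 side, called the Hoxa flank region here, ended 38.2 kb before it, and the nearest on the Hoxa13 side began 175.0 kb after it. The stretch between them held 311625 bp with no region. Of all 17878 stretches, 1940 (10.9%) were longer than this one, and the median was 78.0 kb. A stretch that holds an empty cluster of 98525 bp is above this median by its choice. Its rank is therefore no measure of how empty the locus is.

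The Hoxa flank region (chr6:52073712-52074187, mm9) had the lowest score of the 3, at 56.5 with a MACS p-value of 2.24e-06. It ranked 14767 of 17899, 82.5% of regions scored higher, and 7.77% were narrower. It was intergenic, 111401 bp from Skap2, and held none of the words searched. It lay 80.6 kb downstream of the TSS of Hoxa5 (ENSMUSG00000038253.6, chr6:52151753-52154586) and 96.4 kb downstream of that of Hoxa7 (ENSMUSG00000038236.6, chr6:52164490-52171853). For Hoxa9 (ENSMUSG00000038227.7, chr6:52173099-52181088) the distance was 107.1 kb, just outside the limit of 100 kb, and for Hoxa10 (ENSMUSG00000000938.9, chr6:52181196-52190853) it was 116.9 kb. The 4 genes therefore share 1 nearest region, and their assignment differs only by their place in the cluster. The share of all genes with a nearer region was 73.1% for Hoxa5, 78.3% for Hoxa7, 80.9% for Hoxa9 and 83% for Hoxa10. On its far side the flank region was followed by another 487039 bp without a region, and 4.88% of stretches were longer.

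**Figure D4:**
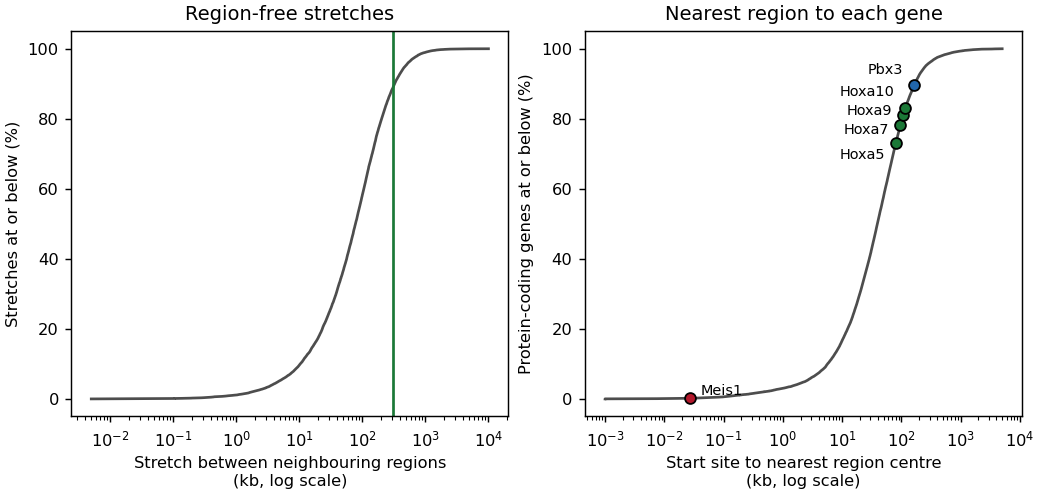
Left, cumulative share (%) of the 17878 stretches between neighbouring regions by length in kb (log scale), with the green line at the stretch that holds the Hoxa cluster (311625 bp). Right, cumulative share (%) of 22367 protein-coding genes by the distance in kb (log scale) from the TSS to the nearest region centre, where Meis1 stands at the lower end (0.174% of genes nearer) and the 4 Hoxa genes and Pbx3 stand at 73.1% to 89.6%.

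On the Hoxa13 side the next region (chr6:52385813-52386527) had a score of 70.32 and lay between Evx1, at 117798 bp, and Hibadh, at 110052 bp. It held 1 ETS word and no C/EBP word. Sequence that matches the C/EBP words was present in the cluster, at 82 places or 0.832 per kb, against 1.12 per kb over chromosome 6 as a whole. In the region-free stretch the words numbered 271, which is 0.87 per kb. Within 1 kb of the TSS there were 3 C/EBP words at Hoxa5, 4 at Hoxa9, 2 at Hoxa10 and 0 at Hoxa7. Over all genes the median was 1, 22.1% had 3 or more and 9.61% had 4 or more. The word nearest to the TSS of Hoxa9 was TTGCTTAA (chr6:52181339-52181346), 254.5 bp upstream, that of Hoxa5 was TTGCACAA (chr6:52154411-52154418), 171.5 bp downstream, and that of Hoxa10 was TTGCCCAA (chr6:52191299-52191306), 449.5 bp upstream. At least 1 such word lay near 3 of the 4 Hoxa start sites, and near 75.7% of the start sites of all genes. Meis1, the gene with a region at its TSS, had 2, and Pbx3 had 0.

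The share of 32-base stretches found at more than 1 place in the genome was 0.977% in the Hoxa cluster, 7.37% in the region-free stretch around it, 2.16% in the Meis1 gene body and 4.59% in the Pbx3 gene body. The Meis1 and Hoxa flank regions held 0.0% of such stretches and the Pbx3 region 0.377%. Only exact matches were counted, so copies of a repeat that differ in letters would be missed. A low share therefore does not show that a region is free of repeats. The read length of the library was not given in the sources used here, and the part of repeated sequence in the placing of regions was not tested.

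The other Hox clusters were read in the same way. The Hoxb cluster (chr11:96055630-96229570) also held 0 regions, although regions lay 11.2 and 4.12 kb from its ends, with scores of 65.73 and 97.78. The Hoxc cluster on chromosome 15 held 1 region, with a score of 80.68, and the Hoxd cluster on chromosome 2 held 1 with a score of 93.25. C/EBP words were found at 0.632 per kb in Hoxb, 0.596 in Hoxc and 0.929 in Hoxd. Whether the density of words bears on the presence of regions was not tested. The region-free stretch around Hoxa (311625 bp) was longer than that around Hoxb (189217 bp).

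The promoters of the 6 genes, from 250 bases before to 50 after the TSS, differed in the words they held. A C/EBP word was present at Meis1 only, and in 17.2% of all 22367 promoters. ETS words were present at Hoxa5, Hoxa10, Meis1 and Pbx3, and in 28.5% of all promoters. The word CCCGCCC, for SP1, was present at Hoxa10 and Pbx3 and in 32.9% of all promoters. A GATA word (AGATAA or TGATAA) was present at Hoxa9 and in 16.7% of all promoters. The RUNX word (TGTGGT or TGCGGT followed by C or T) was in none of the 6 promoters and in 12.2% of all promoters. The same held for the MEIS word (TGACAG), found in 18% of all promoters, and for the composite HOX and PBX word (TGATTNAT), found in 2.75%. Inside the 3 regions none of these words other than C/EBP and ETS was found, while MEIS words were in 40.4% of all regions, GATA words in 37.5% and RUNX words in 24.6%. The palindrome TTGCGCAA, which the C/EBP word includes, was in 0 of the 3 regions and in 1.02% of all. The composite C/EBP and ATF word TGATGCAA, which does not match the C/EBP word, was in 0 of the 3 and in 2.27% of all. At 3 regions an absent word says only that these letters are not in these stretches.

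Among 26 related genes, 21 had a region in the window, 3 had one within 5 kb of the TSS and 6 had one with a score of 100 or more, beside 80.3%, 8.81% and 28.9% of all protein-coding genes. The 6 further genes of the Hoxa cluster had no region within 5 kb, and 4 of them shared the Hoxa flank region, with Hoxa11 and Hoxa13 left without any. The 7 other TALE genes, which encode the MEIS, PREP and PBX relatives, all had a region. Meis2, a paralog of Meis1, had 1 at 1.67 kb downstream of its TSS, with a score of 52.31. This was also a region near the start site, but with a score far below that of the Meis1 region. Pknox2 had 7 regions with a highest score of 157.77, and Meis3 had 3 with a highest score of 144.41. Their nearest regions, 11.5 and 56.8 kb from the TSS, had lower scores of 64.5 and 66.64.

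Of the 8 genes known as activators of Hoxa and Meis1, 5 had a region in the window and none had one within 5 kb of the TSS. Over all protein-coding genes these shares were 80.3% and 8.81%. Men1, which encodes the MLL cofactor menin, had 3, with a highest score of 383.77, the highest of all genes in both lists. The region nearest to the Men1 TSS, 24.2 kb upstream, had a score of only 51.46, so the highest one lay farther away. Kmt2a, which encodes MLL itself, Psip1 and Cdx4 had none. The nearest regions of Psip1 and Kmt2a lay 100.0 and 102 kb away, just past the limit. Kmt2a, Psip1, Cdx4, Hoxa11 and Hoxa13 are named because they were the 5 related genes with no region, and this choice was made with their values known. Of the 5 genes known to lie downstream of Hoxa9 or Meis1, all had a region, as did 80.3% of all protein-coding genes. These 5 are too few to be read against that share. A region of score 72.59 was counted both for an activator and for a gene of this group. Myb, which encodes a factor needed for progenitor growth, had 4, and the nearest lay 4.4 kb downstream of its TSS with a score of 118.34. Id2, which encodes an inhibitor of basic helix-loop-helix factors, had its nearest region 3.58 kb upstream of the TSS with a score of 67.52. No region of the related genes lay as near to the TSS as that of Meis1.

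**Figure D5:**
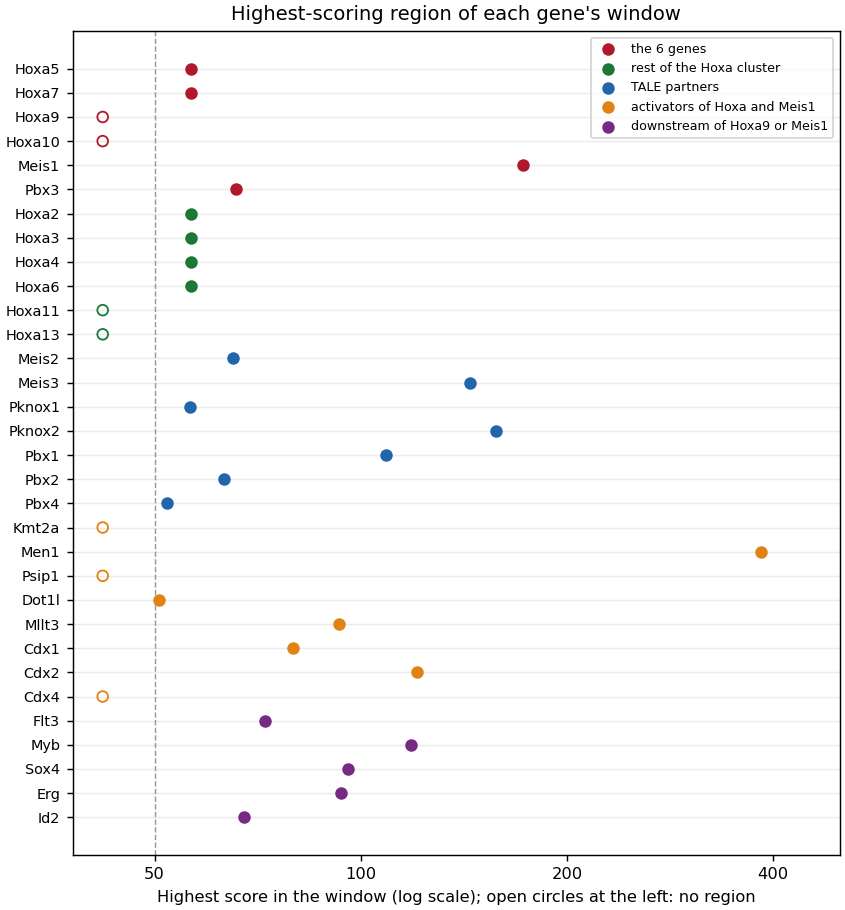
Highest score in the window of each of the 6 genes and of 26 related genes (x axis, log scale), coloured by group, with open circles at the left for genes with no region and a dashed line at the lowest score of the list (50). Meis1 (172.26) is second to Men1 (383.77), the genes of the Hoxa cluster stand at 56.5 or have no region, and 7 genes have none.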

How the data were processed

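C/EBPα ChIP-seq from LSK cells was analysed as 1 region list, filed under 1 library. According to the labels and the study's methods, the authors mapped reads to mm9 with bowtie (0.12.8 in the submitters' processing notes), called regions with MACS 1.4.2 against an IgG mock at a p-value of 1e-05, and used bedtools 2.16.2. The deposited score is the MACS p-value as −log10 multiplied by 10, with no other normalization stated. Whether both LSK libraries were pooled is not stated. Such a score grows with depth, which was not at hand here.

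Region starts were converted from 0-based to 1-based, and centres were midpoints. Genes came from the GENCODE vM1 annotation of NCBIM37 (mm9), with the transcript of the longest genomic span per gene and 22367 protein-coding genes as background. Sequences were read from NCBIM37, and the primers from the study's primer list. Words were counted on both strands over the whole region. Intervals are exact binomial (Clopper-Pearson) at 95% and cover counting error only.

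The genes and word lists were chosen with earlier results of these data known. By a fixed rule, the text names the 6 genes with the nearest and highest region of each, every region within 5 kb of a TSS and every region with a C/EBP word and a score of 100 or more, the related genes with a region within 5 kb and the 3 with the highest score. A gene of the list of related genes is not reported here and was left out of the counts. No tests were made. Alternatives were other windows, all transcripts, gene bodies left out, overlap in place of centres, stricter scores, other words and width. Scripts were tested on simulated data. Sequence was handled with pysam 0.24.0, tables with pandas 2.3.3 and numpy 2.4.6, intervals with scipy 1.17.1, 32-base stretches with numba 0.67.0 and plots with matplotlib 3.10.9, under Python 3.11.15.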

Additional observations from a re-analysis of the deposited data

How the results depend on the processing

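No paired analysis was possible because 1 region list was analysed and no result comes from a test. Of 41 alternative values 18 moved. The other 23 did not, where a count was taken as unmoved within 1.5 times, which includes the fall from 3 to 2 regions within 50 kb or with the gene body left out, and from 21 to 14 related genes within 50 kb. The 3 regions became 5 within 200 kb, where Hoxa9 then had 1, Hoxa10 2 and Meis1 2, and also 5 when the TSS of any transcript was used. In the second case the added regions were at chr2:33974586-33975178 (score 91.64) and chr2:33987271-33987803 (54.0), on the far side of Pbx3. Within 50 kb Hoxa5 and Hoxa7 had 0 regions, and the median score of the 2 regions left was 119.045 in place of 65.83. At scores of 100 or more 1 region was left, with 0 for Hoxa5, Hoxa7 and Pbx3, and 6 of the 21 related genes with a region. At 200 or more 0 regions and 1 related gene were left. The share of regions with a C/EBP word, 33.3%, was 0.0% for TTGCNNAA alone, since TTACACAA at Meis1 is not of that form, beside 24.0% of all regions. It was 100.0% (1 of 1) at scores of 100 or more, beside 44.6% (1619 of 3630) of all such regions. By width 33.2% of all regions lay below the median of the 3, by score 37.1%. The count of 0 regions inside the Hoxa cluster did not change with overlap in place of centres. From Hoxa5 to Hoxa10 alone it could not change, since that span lies inside the whole. Likewise the counts of 0 for Hoxa9 and Hoxa10 could not move within 50 kb or at scores of 100 or more. Such values count among the unmoved without being a check. Depth and replicate spread could not be assessed from a list with no read numbers.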
